A study of Mus musculus with 2 samples.

Results

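Amino acid transporters were followed from brown preadipocytes (D0) to brown adipocytes (D7) in RNA-Seq data of mouse cells. The set held every row of the deposited FPKM table with values whose symbol had the form of a member of the Slc1, Slc3, Slc7, Slc38 or Slc43 family, with Slc7a10 left out. There were 37 such genes among 23361 rows with values. FPKM is the number of sequenced fragments per kb of transcript, scaled to the depth of the library, so levels of different genes can be set side by side. There was 1 library at D0 and 1 at D7. The stages could thus be compared without replicates only, and no test was run.

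Both libraries came from precursor cells of the interscapular brown fat of newborn C57BL/6 mice, with no change of genotype named in the labels. The study's methods give the strain as C57BL/6J. The labels call the cells primary cultures, whereas the study's methods describe immortalization with large T, a viral protein that keeps cells dividing. D0 cells were preadipocytes before induction, which the labels place in a medium with insulin and T3. D7 cells had been induced with IBMX, dexamethasone and indomethacin beside insulin and T3, then kept in insulin and T3 alone. The labels and the methods give different amounts of insulin, dexamethasone and serum. The methods name newborn mice of either sex, and how many of them went into each library is not stated.

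Amino acids cross the plasma membrane through carriers that differ in what they bind and what drives them. Sodium-driven carriers such as those of system A concentrate small neutral amino acids in the cell. Exchangers then trade the stored amino acids, glutamine above all, for others such as leucine outside. Several exchangers of the Slc7 family are light chains that reach the surface only when bound to a heavy chain of the Slc3 family. In brown fat, amino acids serve protein and lipid synthesis and are also fuel for mitochondria.

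All 10 adipocyte markers listed passed 2.0-fold upward, and all 8 listed genes of proliferation passed it downward. Of 8 brown adipocyte genes, 4 were listed at 0 at D0 only (Ucp1, Cidea, Elovl3 and Cox8b) and 3 passed 2.0-fold upward. The last, Prdm16, had a ratio of 1.22 with an interval from 0.965 to 1.53. Of 8 preadipocyte genes, 3 passed 2.0-fold downward and Cd34 upward. The summed FPKM of the proliferation genes was 55.4 in preadipocytes and 13.5 in adipocytes. Markers of other cells moved as well. A ratio of D7 to D0 of 2.0 or more was found for 10 of 11 macrophage genes, and their summed FPKM was 147 in preadipocytes and 519 in adipocytes. All 6 Schwann cell genes, a set for the glia of nerves, were also higher, with sums of 7.77 and 21.2. Skeletal muscle genes had sums of 52.4 and 5.84, most of the D0 sum being Acta1 (45.4 at D0, 1.73 at D7), while Myod1 and Ckm were listed at 0 in both libraries. Of 7 endothelial genes, which had sums of 1.58 and 2.64, Tek and Kdr passed 2.0-fold upward with ratios of 3.11 (2.23 to 4.39) and 2.18 (1.45 to 3.36), Cdh5 passed it downward, and Tie1 was listed at 0 in both. The erythroid genes Hbb-b1 and Hba-a1 were listed at 0 in both. In such bulk libraries fewer cells of a type and less RNA per cell cannot be told apart.

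Transporters moved in both directions, and the glutamine exchanger Slc1a5 came to dominate the set at D7. FPKM was above 0 in both libraries for 29 of the 37 genes. Among these 29, a ratio of D7 to D0 of 2.0 or more was seen for 9 (31.0%), and of 0.5 or less for 8 (27.6%). Among all 14986 genes above 0 in both libraries, 18.5% were higher and 13.2% were lower by this rule. When values below 0.01 were instead set to 0.01 and each library was scaled by its median, 33 transporters were counted. Of these, 9 were higher and 13 lower, beside 2836 higher and 3832 lower among all genes. Genes listed at 0 in 1 library entered both counts, so those of all genes are not shares of the 14986. No share over all genes is given for this setting. Slc3a1 and Slc7a15 replaced Slc38a3 and Slc38a9 among the higher, and Slc7a13 and Slc38a8 joined the lower. That setting lowers the log2 ratio of every gene above the floor by 0.35.

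Of the 37 genes, 22 reached an FPKM of at least 1 in a library. These split evenly, with 7 higher and 7 lower by at least 2.0-fold and 8 in between. Among all genes that reached this level and were above 0 in both libraries, 15.6% were higher and 11.9% were lower. The median log2 ratio of the 29 transporters was -0.31, beside 0.02 for all genes. Their lower quartile was -1.20 and their upper quartile 1.09, beside -0.55 and 0.69 for all genes. The quartiles of the transporters thus lay farther apart than those of all genes. Their median depended on the setting, and was -0.03 with a pseudocount of 1 and -0.66 with the floor and the library median. The latter setting shifts all genes above the floor by -0.35 in log2, and the median of all genes is not given for it.

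**Figure D1:**
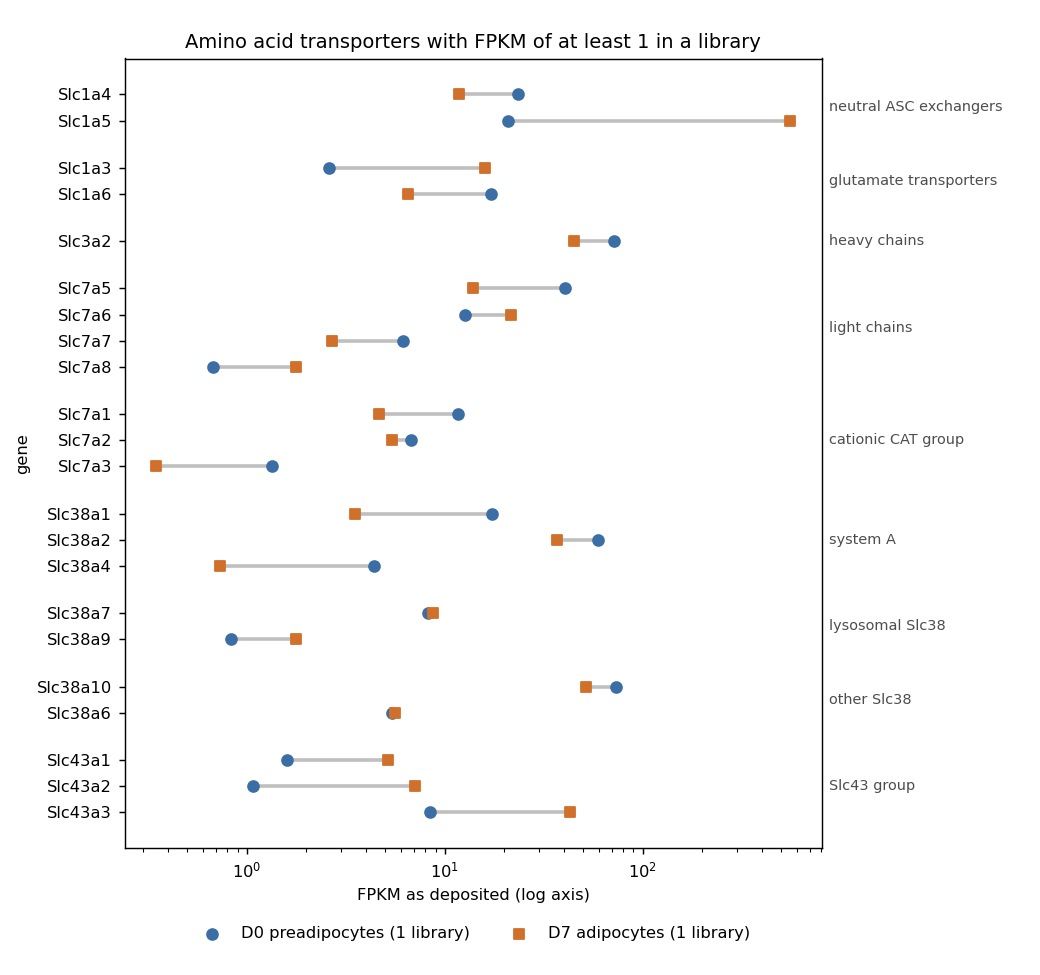
FPKM of the 22 transporters that reached 1 in a library, on a log axis, with a circle for the D0 library, a square for the D7 library and a grey line between them, grouped by role. Slc1a5 ran from 21.0 to 556, farther to the right than any other transporter, while the 3 genes of system A were all lower at D7.

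The 37 transporters together had a summed FPKM of 398 in preadipocytes and 852 in adipocytes. Slc1a5 made up 5.28% of this sum at D0 and 65.2% at D7. Without it, the sum of the other 36 was 377 in preadipocytes and 296 in adipocytes, a ratio of 0.785. At D0 the highest levels were those of Slc38a10 (FPKM 73.7), Slc3a2 (71.5), Slc38a2 (59.6) and Slc7a5 (40.7), and Slc1a5 stood in place 6. At D7 the order was Slc1a5 (556), Slc38a10 (51.8), Slc3a2 (45.1), Slc43a3 (43.0) and Slc38a2 (36.9). Slc7a5 had moved from place 4 to place 8.

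The exchangers Slc1a4 and Slc1a5, known as ASCT1 and ASCT2, carry neutral amino acids such as alanine, serine and cysteine. ASCT2 is also the main exchanger for glutamine in many dividing cells. Slc1a5 (ENSMUSG00000001918.17) lies on the plus strand of chromosome 7 of mm10, from 16781340 to 16798274. Its FPKM rose from 21.0, about 1167 fragments, in preadipocytes to 556, about 26201 fragments, in adipocytes. The ratio was 26.4, with an exact 95% interval from 24.9 to 28.0. Such intervals cover counting error only and compare these libraries, not the stages. At D7 Slc1a5 stood at rank 154 of all rows of the table, above 99.3% of them. Slc1a4 (ENSMUSG00000020142.12) on the minus strand of chromosome 11, from 20302180 to 20332713, had an FPKM of 23.4 in preadipocytes and 11.9 in adipocytes. This is a ratio of 0.507 (0.467 to 0.551), short of 2.0-fold, and of 0.397 in the setting with the floor and the library median. The pair had similar levels at D0 and lay far apart at D7. Slc1a4 supplied 52.7% of their summed FPKM at D0 and 2.10% at D7.

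**Figure D2:**
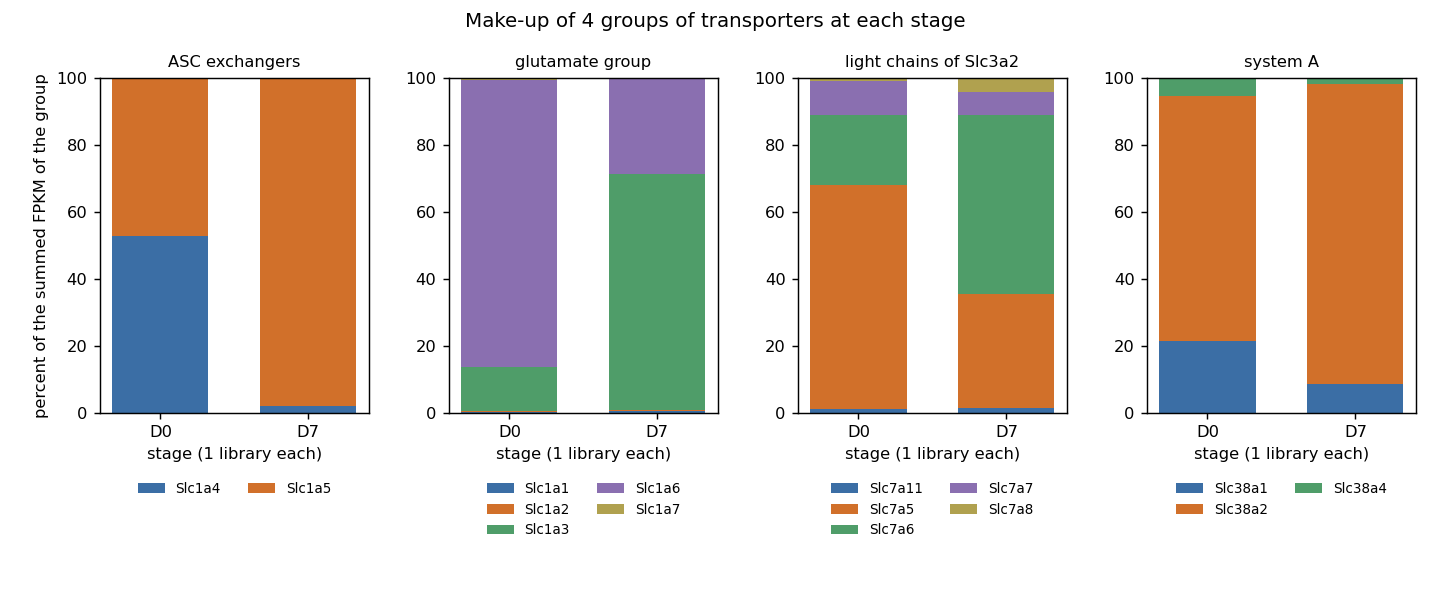
Make-up of 4 groups of transporters at D0 and D7, 1 library each, as the percent of the group's summed FPKM that each gene supplied. Slc1a5 went from 47.3% to 97.9% of its group, Slc1a3 from 13.0% to 70.4%, Slc7a6 from 20.8% to 53.5% and Slc38a2 from 73.2% to 89.6%.

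The other Slc1 genes carry the acidic amino acids glutamate and aspartate and are best known from the brain, where they clear glutamate from synapses. The leading gene of this group changed between the stages. Slc1a3 (GLAST, ENSMUSG00000005360.14, minus strand of chromosome 15, 8634124 to 8710764) had an FPKM of 2.60 in preadipocytes and 16.0 in adipocytes. The ratio was 6.15 (5.31 to 7.11), on 223 and 1163 fragments. Slc1a6 (EAAT4, ENSMUSG00000005357.9, plus strand of chromosome 10, 78780496 to 78814765), known from Purkinje neurons of the cerebellum, had an FPKM of 17.1 in preadipocytes and 6.52 in adipocytes. Its ratio was 0.380 (0.325 to 0.443). No exon of another annotated gene overlaps the exons of Slc1a3 or Slc1a6. The 5 genes summed to 19.9 in preadipocytes and 22.7 in adipocytes, so the group's total was nearly level while Slc1a6 gave way to Slc1a3. GLAST is also a gene of glia, whose markers were higher at D7, as were those of macrophages. The part of such cells in the level of Slc1a3 was not tested. Slc1a1 had about 1 fragment in preadipocytes and 7 in adipocytes, which is a ratio of 8.24 with an interval from 1.06 to 371. Its exons overlap those of 4430402I18Rik on the opposite strand, which had an FPKM of 0.401 in preadipocytes and 3.17 in adipocytes. Whether strand was used in counting is not stated, so the value of Slc1a1 is uncertain.

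Slc3a2 encodes the heavy chain 4F2hc (CD98), which carries its light chains to the plasma membrane. Slc3a2 (ENSMUSG00000010095.13, minus strand of chromosome 19, 8706882 to 8723369) had an FPKM of 71.5 in preadipocytes and 45.1 in adipocytes. Its ratio of 0.631 (0.591 to 0.675) stayed short of 2.0-fold, and was 0.494 with the floor and the library median. The other heavy chain, Slc3a1, is mainly a kidney and gut protein. No fragment was listed in preadipocytes, and about 6 in adipocytes gave an FPKM of 0.155. This was 2.32 times the limit of 3 fragments at D0, and with the counting error of both libraries the interval of the ratio starts at 1.39. The exons of Slc3a1 overlap those of Prepl on the opposite strand, whose FPKM of 24.9 in preadipocytes and 14.4 in adipocytes was far above it, so this value is uncertain too.

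The light chains of Slc3a2 changed their order. Slc7a5 is LAT1, the exchanger that brings leucine and other large neutral amino acids into growing cells. Slc7a5 (ENSMUSG00000040010.10, minus strand of chromosome 8, 121881150 to 121907694) had an FPKM of 40.7 in preadipocytes and 13.9 in adipocytes, a ratio of 0.341 (0.316 to 0.369). Slc7a6, known as y+LAT2, exchanges cationic amino acids such as arginine for glutamine. Slc7a6 had an FPKM of 12.7 in preadipocytes and 21.8 in adipocytes, a ratio of 1.72 (1.58 to 1.87) that did not reach 2.0. Slc7a6 was thus below Slc7a5 at D0 and above it at D7. Slc7a7, or y+LAT1, works like Slc7a6 and is known from gut, kidney and macrophages. Slc7a7 had an FPKM of 6.20 in preadipocytes and 2.69 in adipocytes, a ratio of 0.435 (0.343 to 0.547). Its interval includes 0.5, and the ratio was 0.513 with a pseudocount of 1. The deposited locus of Slc7a7 is also that of Oxa1l on the opposite strand, which was higher at D7 with FPKM values of 14.3 and 29.2. The list of macrophage genes was mostly higher at D7, and the part of such cells in the level of Slc7a7 was not tested. Slc7a8, or LAT2, is a close relative of LAT1 with a wider range of neutral amino acids. Slc7a8 had an FPKM of 0.677 in preadipocytes and 1.78 in adipocytes, a ratio of 2.63 (1.90 to 3.65), or 1.66 with a pseudocount of 1.

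Slc7a11, or xCT, imports cystine for glutathione synthesis and is named here although it stayed below 1, a choice made after its values were seen. Its FPKM was 0.736 in preadipocytes and 0.575 in adipocytes, a ratio of 0.781 with an interval from 0.596 to 1.02 that includes 1. The 5 genes Slc7a5, Slc7a6, Slc7a7, Slc7a8 and Slc7a11 summed to 61.0 in preadipocytes and 40.7 in adipocytes, a ratio of 0.668. Slc3a2 with its ratio of 0.631 lay close to this sum at both stages. LAT1 supplied 66.7% of the sum at D0 and 34.1% at D7, whereas y+LAT2 supplied 20.8% and 53.5%. The remaining genes of the light chain group, Slc7a9, Slc7a12, Slc7a13 and Slc7a15, had at most about 1 fragment in a library.

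The cationic amino acid transporters (CAT) bring arginine, lysine and ornithine into cells without a heavy chain. Of 5 genes, 2 were lower and 0 higher by 2.0-fold at D7, beside 13.2% and 18.5% of all genes. Such a small group cannot be set apart from all genes by these counts. Only 3 of the 5 reached an FPKM of 1 in a library, and the intervals of the others include 1. Slc7a1 (CAT1, ENSMUSG00000041313.14, minus strand of chromosome 5, 148327410 to 148399904) had an FPKM of 11.7 in preadipocytes and 4.65 in adipocytes. The ratio was 0.397 (0.361 to 0.436). Slc7a2 (CAT2) had 6.75 in preadipocytes and 5.45 in adipocytes, a ratio of 0.808 (0.736 to 0.886), so that CAT2 passed CAT1 at D7. Slc7a3 (CAT3), known mainly from the nervous system, had 1.34 in preadipocytes and 0.350 in adipocytes. Its ratio of 0.262 (0.135 to 0.472) rested on 63 and 14 fragments and was 0.577 with a pseudocount of 1. Together the group summed to 20.5 in preadipocytes and 10.9 in adipocytes.

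System A takes up alanine, serine, glutamine and other small neutral amino acids together with sodium, and SNAT2 (Slc38a2) is the member that cells raise when amino acids run short. All 3 of its genes had lower values at D7, and 2 of them by more than 2.0-fold. Among all genes above 0 in both libraries 13.2% were lower by at least 2.0-fold. Such a small group cannot be set apart from all genes by these counts. Slc38a1 (SNAT1, ENSMUSG00000023169.15) had an FPKM of 17.4 in preadipocytes and 3.54 in adipocytes, a ratio of 0.203 (0.173 to 0.237). Slc38a4 (SNAT4, ENSMUSG00000022464.14), a gene known to be imprinted in mice, had 4.41 in preadipocytes and 0.730 in adipocytes, a ratio of 0.166 (0.121 to 0.223). Slc38a2 (ENSMUSG00000022462.7) had 59.6 in preadipocytes and 36.9 in adipocytes, a ratio of 0.619 (0.592 to 0.647) short of 2.0-fold, and 0.485 with the floor and the library median. The system A sum was 81.4 in preadipocytes and 41.1 in adipocytes, and Slc38a2 supplied 73.2% and 89.6% of it. The 3 genes are neighbours on the minus strand of chromosome 15, where the deposited loci run from 96571417 to 97055956. No other row with values lies wholly inside that stretch. All 8 listed proliferation genes were lower at D7 too. Their part in the lower values of system A and LAT1 was not tested.

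**Figure D3:**
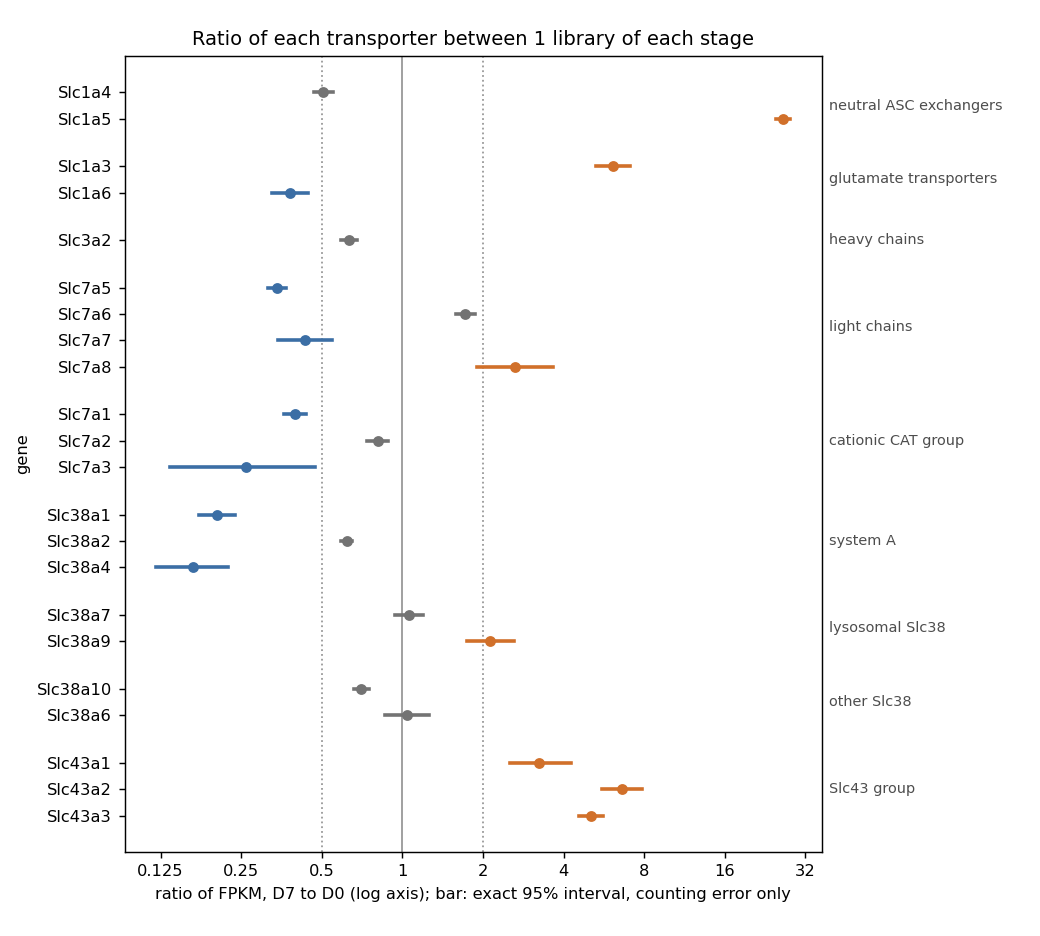
Ratio of FPKM at D7 to D0 for the same 22 transporters on a log axis, with exact 95% intervals for counting error as bars, a solid line at 1 and dotted lines at 0.5 and 2. Orange genes were at or above 2, blue genes at or below 0.5 and grey genes in between, from Slc38a4 at 0.166 to Slc1a5 at 26.4.

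Other Slc38 proteins sit on lysosomes and inner membranes. Slc38a9 is the lysosomal arginine sensor that tells the kinase complex mTORC1 of amino acids. Slc38a9 had an FPKM of 0.832 in preadipocytes and 1.77 in adipocytes, a ratio of 2.13 (1.75 to 2.61), which was 1.67 with the floor and the library median. Slc38a7, which exports glutamine from lysosomes, had 8.21 in preadipocytes and 8.71 in adipocytes, and its interval from 0.938 to 1.20 includes 1. Slc38a6 had 5.41 in preadipocytes and 5.64 in adipocytes, with an interval from 0.860 to 1.26. Slc38a6 and Slc38a7 turned to ratios of 0.816 and 0.831 with the floor and the library median. Slc38a10, whose protein is little studied, had 73.7 in preadipocytes and 51.8 in adipocytes, a ratio of 0.702 (0.657 to 0.751). The transcript named for it in the table has 1672 bp and is shorter than others of the gene, so its place in the order of levels is uncertain. Exons of annotated transcripts on the opposite strand overlap Slc38a9, Slc38a10 and Slc7a2, and their levels were not analysed here. The system N genes Slc38a3 and Slc38a5, typical of liver and brain, had at most about 7 fragments in a library.

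The Slc43 group was the only role in which every gene passed 2.0-fold upward, and it kept to that side in all 8 settings tried for single genes. Among all genes above 0 in both libraries 18.5% were higher by at least 2.0-fold. A group of 3 genes cannot be set apart from all genes by this count. Slc43a1 and Slc43a2, known as LAT3 and LAT4, let leucine, isoleucine, methionine and phenylalanine pass without exchange. Slc43a1 (ENSMUSG00000027075.16, plus strand of chromosome 2, 84838850 to 84863594) had an FPKM of 1.60 in preadipocytes and 5.20 in adipocytes, a ratio of 3.24 (2.51 to 4.25). Slc43a2 (ENSMUSG00000038178.16, plus strand of chromosome 11, 75531694 to 75577575) had 1.07 in preadipocytes and 7.06 in adipocytes, a ratio of 6.59 (5.57 to 7.86). On the opposite strand the annotation places Gm45606, whose exons overlap those of Slc43a2. Slc43a3 carries purine nucleobases rather than amino acids and is a member by name only. Slc43a3 (ENSMUSG00000027074.14, plus strand of chromosome 2, 84936579 to 84958509) had 8.48 in preadipocytes and 43.0 in adipocytes, a ratio of 5.07 (4.57 to 5.64). Over the group the sum was 11.2 in preadipocytes and 55.3 in adipocytes, of which Slc43a3 supplied 8.48 and 43.0. Among Slc7a5, Slc7a8, Slc43a1 and Slc43a2, which all carry leucine, LAT1 was the highest and LAT2 the lowest at both stages. LAT1 lay far above the rest at D0, whereas LAT1, LAT4 and LAT3 were within 3-fold of each other at D7. Other carriers of leucine were not counted here, and Slc7a6 stood above LAT1 at D7.

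The remaining 15 genes stayed under an FPKM of 1 in both libraries. Of these, Slc7a9, Slc7a12, Slc38a5 and Slc38a11 were listed at 0 in both, Slc3a1 and Slc7a15 at D0 only, and Slc7a13 and Slc38a8 at D7 only. Values above 0 among the 15 ran from 0.0132 to 0.736. Slc1a7 and Slc38a3 passed 2.0-fold on 7 and 1 and on 4 and 7 fragments, with intervals of the ratio that include 1. For that pair a difference was not detectable at this depth.

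Promoters were compared because the amino acid response element is known from several transporter genes. This is a short site read by ATF4, the factor that cells use when amino acids are scarce. RefSeq promoter windows (GRCm38.p6), with 250 bases before and 50 after a start, were given for 27 of the 37 genes. The windows were searched on both strands for the core TGATGNAA, where N is any base. It was present for 3 of the 27 transporters (11.1%) and for 4.51% of all 27025 genes with a window. These 3 were Slc1a4, Slc7a7 and Slc7a11, shown 5′ to 3′ on the strand of the gene with matches in capitals. The stretch of Slc7a11 is chr3:50443613-50443719 (minus strand), with matches at -66 to -59 and at -47 to -40 from the start. That of Slc1a4 is chr11:20332694-20332757 (minus strand), whose match runs from -4 to 4 around the start. That of Slc7a7 is chr14:54417898-54417952 (minus strand), with the match at -243 to -236 from the start of the deposited locus. The same match spans a second start at 54417944, from -1 to 7. The window of that second start also held TGATGAAA at -141 to -134, which is not shown.
Slc7a11: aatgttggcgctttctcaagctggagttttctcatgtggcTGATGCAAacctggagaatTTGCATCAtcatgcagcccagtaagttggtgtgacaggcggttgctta
Slc1a4: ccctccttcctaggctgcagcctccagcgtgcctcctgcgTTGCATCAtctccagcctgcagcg
Slc7a7: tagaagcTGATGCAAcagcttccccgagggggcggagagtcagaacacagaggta
The ratios of Slc7a11, Slc1a4 and Slc7a7, given above with their intervals, were 0.781, 0.507 and 0.435. The PPAR direct repeat DR1, 2 copies of AGGTCA with 1 base between them, was found for 0 of the 27 transporters and for 13 of all genes, and no match says only that these letters are not in the window. Slc1a5, Slc7a2, Slc7a3, Slc7a4, Slc7a5, Slc7a12, Slc7a13, Slc38a1, Slc38a3 and Slc43a3 had no window in the table.

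Genes that handle the transported amino acids were listed beside the transporters. The enzymes of serine, glycine and proline synthesis were mostly lower at D7, with 7 of 12 lower by at least 2.0-fold and 0 higher. Among all genes 13.2% were lower and 18.5% higher. The median log2 ratio of these enzymes was -1.06, beside 0.02 for all genes. Mthfd1l of the mitochondrial folate cycle had a ratio of 0.224 (0.185 to 0.270), from an FPKM of 9.82 to 2.20. Aldh18a1, which opens proline synthesis, had a ratio of 0.233 (0.215 to 0.253). The serine enzymes Psat1 and Phgdh had FPKM values of 109 and 108 at D0 and of 40.9 and 41.2 at D7. Their ratios were 0.376 (0.355 to 0.399) and 0.381 (0.358 to 0.406).

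Of 12 glutamine and glutamate enzymes, 4 were higher and 1 lower by at least 2.0-fold, beside 18.5% and 13.2% of all genes. Their median log2 ratio of 0.29 turned to -0.06 with the floor and the library median. Glul, the glutamine synthetase that joins ammonia to glutamate, had an FPKM of 12.2 in preadipocytes and 679 in adipocytes, a ratio of 55.7 (51.6 to 60.1). Its level at D7 was of the same order as that of the glutamine exchanger Slc1a5. Gpt, an alanine aminotransferase, went from 0.474 to 15.5, a ratio of 32.8 (20.5 to 59.4), and its mitochondrial relative Gpt2 had a ratio of 3.44 (3.18 to 3.72). Glud1, the glutamate dehydrogenase of mitochondria, had a ratio of 3.74 (3.63 to 3.85). Gfpt2, which spends glutamine on hexosamines, was lower with a ratio of 0.351 (0.315 to 0.391).

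**Figure D4:**
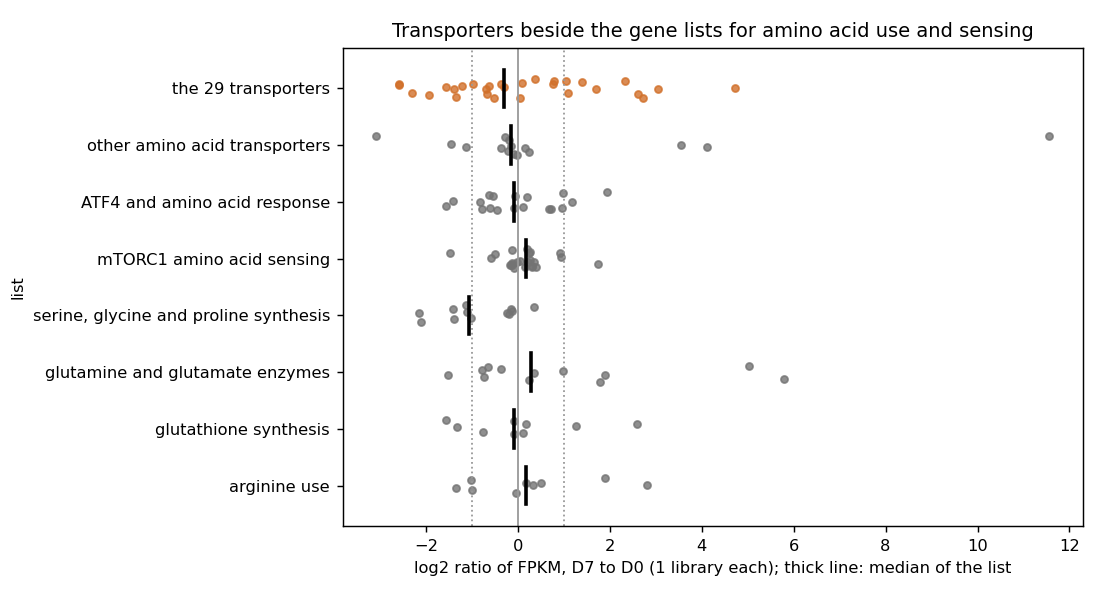
Log2 ratio of FPKM at D7 to D0 for the 29 transporters above 0 in both libraries, in orange, and for 7 gene lists, in grey, with a thick line at each median, a thin line at 0 and dotted lines at 2.0-fold. The median of the serine, glycine and proline enzymes lay farthest to the left at -1.06, while the medians of the transporters and of the other 6 lists lay between -0.31 and 0.29.

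Most genes of the amino acid response and of mTORC1 sensing, 14 of 18 and 22 of 24, stayed within 2.0-fold. Among all genes above 0 in both libraries, 31.7% were past 2.0-fold in either direction. Of 18 genes tied to ATF4, 2 were higher and 2 lower by at least 2.0-fold, with a median log2 ratio of -0.08, or -0.43 with the floor and the library median. At any size of change, 8 had higher and 10 lower values at D7. Atf4, named after its values were seen, had an FPKM of 204 in preadipocytes and 115 in adipocytes, a ratio of 0.564 (0.540 to 0.588). The list leaves out the serine and proline enzymes above and the transporters, so it covers these 18 genes only. Vldlr and Atf3 were the higher genes, with ratios of 3.86 (3.57 to 4.19) and 2.26 (1.72 to 3.05). Chac1, which breaks down glutathione, and Stbd1, which binds glycogen, were the lower genes, with ratios of 0.340 (0.278 to 0.413) and 0.379 (0.323 to 0.444). Of 24 genes of mTORC1 sensing, 1 was higher and 1 lower, both of the sestrin family. The median of that list was 0.18, and -0.17 with the floor and the library median. Sesn1 had an FPKM of 6.05 in preadipocytes and 20.4 in adipocytes, a ratio of 3.37 (3.04 to 3.76), and Sesn3 had 22.7 and 8.23, a ratio of 0.362 (0.341 to 0.385).

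Among 15 amino acid carriers of other families above 0 in both libraries, 3 were higher and 3 lower by at least 2.0-fold. These counts lie near the shares of all genes, 18.5% higher and 13.2% lower. Slc36a2, a proton-driven carrier of glycine, alanine and proline that is a surface marker of brown and beige fat cells, had about 2 fragments among preadipocytes and 5127 among adipocytes. The FPKM was 0.0414 in preadipocytes and 125 in adipocytes, a ratio of 3020 with an interval from 835 to 24923. At D7 only Slc1a5 among the 37 transporters stood above it. Slc16a10, a carrier of aromatic amino acids, had a ratio of 17.4 (12.7 to 23.9), and Mfsd12, which brings cysteine into lysosomes, of 11.7 (10.5 to 13.1). The neuronal carrier Slc6a17 and the creatine transporter Slc6a8 were lower, with ratios of 0.118 (0.0854 to 0.161) and 0.459 (0.430 to 0.490). Slc6a13, a carrier of GABA and taurine named after its values were seen, was listed at 0 in preadipocytes and at an FPKM of 3.06 in adipocytes, at least 45.0-fold above the limit of 3 fragments, with an interval of the ratio that starts at 36.1.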

How the data were processed

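RNA-Seq was performed on 1 library of brown preadipocytes (D0) and 1 of brown adipocytes (D7). Per the study's methods, reads were filtered, freed of duplicates and rRNA, and mapped to mm10 and gene sequences with SOAP2, while the submitters' processing notes name Bowtie2. The authors deposited 1 FPKM value per gene and library, on a linear scale. Of 27324 rows, 3963 held no value and were not used. How FPKM was made from alignments, and whether strand was used, is not given in the sources used here.

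The ratio of D7 to D0 was taken from the deposited FPKM values without a pseudocount, for genes above 0 in both libraries. Calls were made at 2.0 and above and at 0.5 and below, the fold threshold the study's methods name, and genes listed at 0 were kept apart. The methods name no scaling. The alternative with a floor of 0.01 and the library median had been worked out from the folds the study lists. Over all genes it gave 2836 higher and 3832 lower, the counts the study reports, so the study's own calls may rest on it. The counts made here without a floor or scaling differ from those of the study. In 602 single-exon genes of at least 600 bp, with ends within 500 bp of the annotation, all low values (20 fragments or fewer, 79 at D0 and 89 at D7) were whole within 0.1. This required 179 bp and 182 bp to be taken off the length. The denominators of FPKM found in this way were 21473590 (D0) and 18267016 (D7) fragments. For other genes, fragments were computed with the length of the transcript the row names, found for all 37 transporters. For some genes of the lists, Mfsd12, Odc1 and Ggt5 among them, the longest coding transcript was used instead. Fragments are approximate there and where a gene has several transcripts. Intervals are exact Clopper-Pearson intervals at 95% on these fragments, and 3 fragments were taken as the limit of a value of 0. They cover counting error only.

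Coordinates and overlapping exons were taken from GENCODE M21 (GRCm38, that is mm10). The members, roles, gene lists and rules were chosen with earlier results of these data known. Transporters with FPKM of at least 1 in a library were named, and below that those at 0 in 1 library and over 3 fragments in the other, or past 2.0-fold with an interval that excludes 1. From each list, up to 4 genes with the highest and up to 4 with the lowest ratios past 2.0-fold were named at that level. The scripts were tested on simulated data. Protein sequences were not used here. Computations used scipy 1.17.1, numpy 2.4.6 and pandas 2.3.3 under Python 3.11.15, and plots matplotlib 3.10.9.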

Additional observations from a re-analysis of the deposited data

How the results depend on the processing

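The settings tried were pseudocounts of 0.1 and 1, TPM, median centring, the upper quartile, a trimmed mean, a floor of 0.01 with the library median, filters at FPKM of 0.1 and 1, a threshold of 4.0, summed rows and at least 10 fragments. The counts of 9 higher and 8 lower transporters became 5 and 5 with a pseudocount of 1, and 5 and 3 at 4.0-fold. With the floor and library median 13 were lower, and 33 were counted there and with the pseudocounts. All genes gave 2767 higher and 1980 lower, then 1533 and 1021 with a pseudocount of 1, and 1211 and 578 at 4.0-fold, and with the floor 3832 lower. The floor also moved the median log2 ratios of other amino acid transporters, mTORC1 sensing and serine, glycine and proline synthesis to -0.44, -0.17 and -1.41, that of the transporters from -0.31 to -0.66, and those of ATF4 and of glutathione genes to -0.43 and -0.34. Glutamine and glutamate enzymes turned from 0.29 to -0.06 and arginine use from 0.18 to -0.17, under a shift of -0.35 that all genes above the floor share. Arginine use was at -0.03 at FPKM of 1, glutathione at 0.02 with a pseudocount of 0.1, and the transporters at -0.03 with a pseudocount of 1. Among the 22 transporters with FPKM of at least 1, some crossed 2.0-fold in the 8 settings tried for single genes. With a pseudocount of 1, Slc7a3, Slc7a7, Slc7a8 and Slc38a9 fell short of it, and Slc38a9 also with the floor. With the floor, Slc1a4, Slc3a2 and Slc38a2 passed it downward, and Slc1a4 also with TPM. Genes past 2.0-fold could not turn direction, since a pseudocount keeps it and the largest scaling shift was -0.35 in log2. No paired analysis was possible because there was 1 library per stage, and for the same reason no library could be left out. The spread between cultures of a stage is unknown.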

Other observations

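Genes for the use of arginine, which the cationic transporters bring in, had a median log2 ratio of 0.18, which turned to -0.17 with the floor of 0.01 and the library median and to -0.03 at an FPKM of at least 1. Of 9 such genes above 0 in both libraries, 2 were higher and 2 lower by at least 2.0-fold, near the 18.5% and 13.2% of all genes. Odc1, the first enzyme of polyamine synthesis, was the lower gene that reached an FPKM of 1, with values of 66.6 in preadipocytes and 32.8 in adipocytes and a ratio of 0.492 (0.460 to 0.527). The other called genes, Arg1, Arg2 and Nos3, stayed below 1 and are named after their values were seen. Nos1 and Nos2 were listed at 0 in both libraries. Of 9 genes of glutathione synthesis and breakdown above 0 in both libraries, 2 were higher and 2 lower, again near the shares of all genes. Their median log2 ratio was -0.07, or 0.02 with a pseudocount of 0.1. Cbs, which joins homocysteine and serine, had a ratio of 6.07 (3.77 to 9.73) and Ggt5 of 2.39 (2.04 to 2.82). Ggt7 had a ratio of 0.400 (0.329 to 0.482), and the other lower gene was Chac1.

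Slc43a1 and Slc43a3, both higher at D7, are neighbours on chromosome 2. Between them the table held a single other row with values, Rtn4rl2, which is no transporter and was looked at after the values of the pair were seen. Its FPKM was 1.20 in preadipocytes and 9.12 in adipocytes, a ratio of 7.58 (5.07 to 11.7), so all 3 rows of that stretch passed 2.0-fold upward. On chromosome 14, Slc7a7 and Slc7a8 lie within 421047 bp of each other among 19 rows with values and moved in opposite directions, with ratios of 0.435 and 2.63.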
